A study of Mus musculus with 10 samples.

Results

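The 10 annexin genes described here, Anxa1, Anxa2, Anxa3, Anxa4, Anxa5, Anxa6, Anxa7, Anxa10, Anxa11 and Anxa13, were measured by RNA sequencing in jejunal epithelial cells of mice with and without MYO5B. They are 10 of the 12 annexin genes among the 35275 genes of the expression table, and they were chosen by gene name with their levels in view, in particular the near absence of Anxa10 in control and its high level in MYO5B-knockout mice. Differences of these genes from control are therefore described without a test. The choice did not name the comparison of LPA-treated with vehicle-treated MYO5B-knockout mice, which was tested. The LPA-treated levels were in view as well, so this test cannot be taken as independent of the choice.

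All 10 mice were adult C57BL/6 animals, labelled male, with floxed MYO5B alleles and a Cre recombinase that tamoxifen activates and that the villin promoter, active in intestinal epithelium, drives (VillinCreERT2;MYO5Bflox/flox). The 3 control mice (numbers 2, 4 and 5) received corn oil and were not induced. The 4 MYO5B-knockout mice (numbers 3, 5, 6 and 7) received 2 mg of tamoxifen and then intraperitoneal vehicle, 0.1% BSA in PBS, for 4 days. The 3 LPA-treated MYO5B-knockout mice (numbers 1, 4 and 5) received tamoxifen and lysophosphatidic acid (LPA), a bioactive phospholipid that signals through cell surface receptors, at 3 mg/kg in place of vehicle. For mouse 1 of this group 1 line of the description names vehicle and another LPA, and it was grouped by its title. Cells were released from the jejunum on day 4 with EDTA. Only the 7 knockout mice received tamoxifen, and the intraperitoneal injections are described for them alone. The drug, these injections and the loss of MYO5B cannot be told apart in any comparison with control.

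Annexins are cytosolic proteins that bind acidic phospholipids when calcium rises, through a conserved core of repeats. Their variable amino-terminal tails bind partners, among them the small calcium-binding proteins of the S100 family, and join them to membranes. In epithelia annexins are known for apical membrane traffic, exocytosis, endosome handling and the resealing of damaged plasma membrane. MYO5B, the motor protein removed in these mice, moves recycling endosomes toward the apical surface of enterocytes.

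Levels are given as FPKM, fragments per kilobase of gene and of library size, which correct for gene length and so allow comparison between genes. The libraries held 10949420 to 24470409 reads on genes, and 1 read on a gene of 1 kb was worth 0.0409 to 0.0913 FPKM. A pair of libraries, from mouse 2 of control and mouse 3 of the MYO5B-knockout group, stood apart from the rest, with 12242 and 12601 detected genes against 17309 to 18267, and with 17.4% to 18.05% of reads on mitochondrial genes against 1.98% to 3.50%. The same MYO5B-knockout library and that of LPA-treated mouse 1 contained the female-specific Xist RNA, at 8.41 and 15.1 FPKM, and no read on 4 Y-linked genes, against their label. Results that moved without these 3 libraries are given with and without them. LPA-treated mouse 5 was kept in that setting. Over the genes tested, its deviations from its group mean correlated at 0.440 with those of control mouse 2. With those of MYO5B-knockout mouse 3 they correlated at 0.480. Against the other control and vehicle-treated knockout libraries the correlations were -0.214 to -0.454. What these libraries have in common was not tested. Myo5b itself was at 16.5 to 32.0 FPKM in control, 10.5 to 13.6 FPKM in MYO5B-knockout and 10.3 to 11.7 FPKM in LPA-treated MYO5B-knockout mice.

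Promoter sequence is shown for Anxa10, because its messenger RNA went from a handful of reads to 454 or more per library, and beside it for Anxa5 and Anxa2, a moderately and an abundantly expressed annexin that were also higher in every knockout library. The bases, from RefSeq (GRCm38.p6), end at the annotated transcription start or, for Anxa2, where the gene begins in the GENCODE annotation. Capitals mark matches to the letters TGANTCA, a sequence recognised by AP-1 factors, and TATAAA, the TATA box.
Anxa10, chr8:62123194-62123443, minus strand: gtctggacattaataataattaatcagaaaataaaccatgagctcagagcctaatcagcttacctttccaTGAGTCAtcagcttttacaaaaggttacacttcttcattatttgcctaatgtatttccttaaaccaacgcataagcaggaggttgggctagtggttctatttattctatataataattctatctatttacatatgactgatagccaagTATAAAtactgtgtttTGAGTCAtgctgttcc
Anxa5, chr3:36475888-36476137, minus strand: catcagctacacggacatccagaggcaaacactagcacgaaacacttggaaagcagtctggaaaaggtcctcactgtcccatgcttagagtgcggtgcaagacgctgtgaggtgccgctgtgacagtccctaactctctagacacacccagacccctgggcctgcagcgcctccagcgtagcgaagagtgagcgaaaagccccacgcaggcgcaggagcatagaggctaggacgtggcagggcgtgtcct
Anxa2, chr9:69453433-69453619, plus strand: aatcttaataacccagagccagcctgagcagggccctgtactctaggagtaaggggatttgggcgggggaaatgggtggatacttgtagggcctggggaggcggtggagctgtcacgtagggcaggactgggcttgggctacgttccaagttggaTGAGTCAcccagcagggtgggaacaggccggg
The Anxa10 window held TGAGTCA at 180 and 16 bases before the start and TATAAA at 32 bases before it. The Anxa2 window held TGAGTCA at 95 bases and TATAAA at 17 bases before its RefSeq start, which lies beyond the end of the stretch printed, so that the TATAAA is not in it. The Anxa5 window held neither. Both strands were searched in the 250 bases before each start, and no match overlapped another. Beside the letters above, the search took in GGAATG, a sequence recognised by TEAD factors. Windows were at hand for 7 of the 10 annexins, some with more than 1 start, giving 9 windows. TGANTCA was present in 2 of these 9 and in 6.75% of all 32851 mouse windows. TATAAA was present in 3 of 9 and in 12.4% of all windows, and GGAATG in 1 of 9, that of Anxa1, and in 12.6% of all. These are matches of letters and were not tested as binding sites.

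In control jejunum the annexin messenger RNA pool was made up mostly of Anxa2, Anxa4 and Anxa13. Summed over the 10 genes the level was 1147 to 1274 in control, 2162 to 2404 in MYO5B-knockout and 2646 to 3631 in LPA-treated MYO5B-knockout mice. Anxa2 alone made up 50.2% to 76.0% of the control sum. By mean level the control order was Anxa2, Anxa4, Anxa13, Anxa7, Anxa11, Anxa5, Anxa6, Anxa3, Anxa1 and Anxa10. Neighbours in this order whose libraries overlapped were Anxa4 and Anxa13, the run from Anxa11 through Anxa5 and Anxa6 to Anxa3, and Anxa1 and Anxa10. In MYO5B-knockout mice Anxa13 stood next to Anxa2, with libraries that overlapped those of Anxa4. By mean level Anxa10 moved from the last place to the fifth, between Anxa7 and Anxa5, with libraries that overlapped those of Anxa5. Anxa10 made up 0% to 0.0102% of the annexin sum in control and 0.887% to 2.56% in MYO5B-knockout mice. As these are bulk samples, a change in how many cells of a type were present and a change in RNA per cell cannot be told apart.

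**Figure D1:**
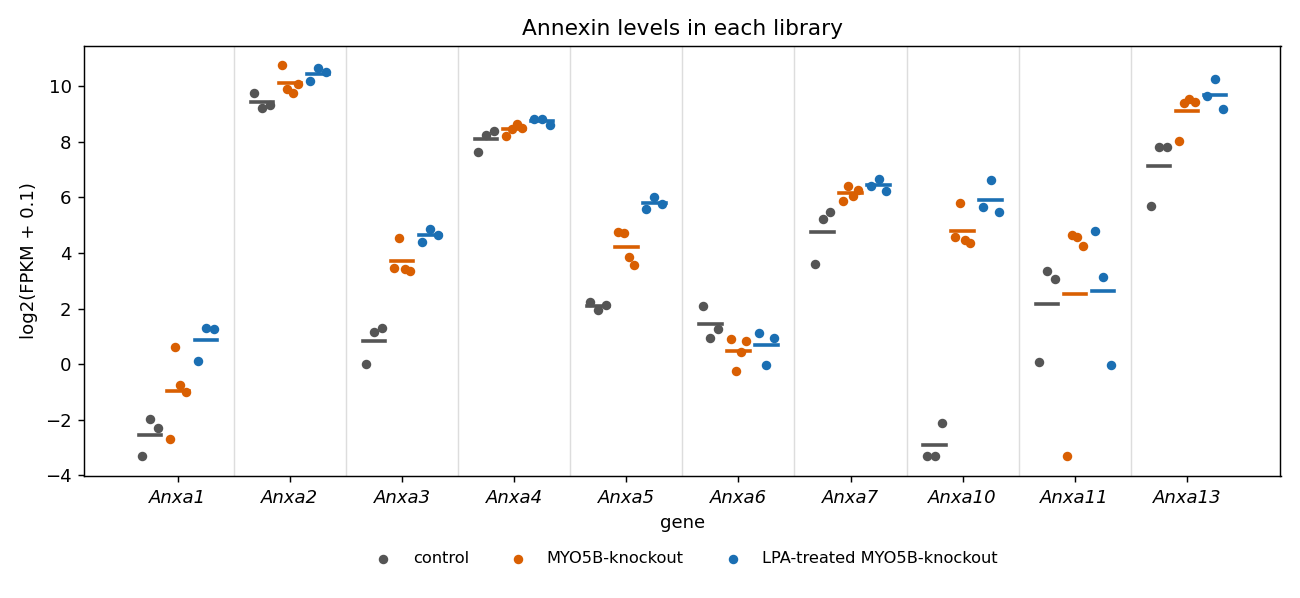
Level of each annexin gene in each library, as log2(FPKM + 0.1) on the vertical axis. Points are mice, 3 control (grey), 4 MYO5B-knockout (orange) and 3 LPA-treated MYO5B-knockout (blue), and short lines are group means. The Anxa10 points of control lie far below those of both knockout groups, and the single low orange Anxa11 point is MYO5B-knockout mouse 3, at 0 FPKM.

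Anxa10 is known as a gene of the stomach surface epithelium. It had 0, 0 and 4 reads in control mice 2, 4 and 5, which is 0, 0 and 0.130 FPKM. In MYO5B-knockout mice 3, 5, 6 and 7 it was at 23.6, 56.3, 22.2 and 20.2 FPKM, from 454, 1709, 798 and 803 reads. In LPA-treated mice 1, 4 and 5 it was at 51.0, 98.0 and 44.5 FPKM. All 7 knockout libraries were thus above every control library, with MYO5B-knockout mouse 5 highest among those given vehicle. Pooled over libraries, the Anxa10 share of reads was 581 times that of control in MYO5B-knockout mice, with a 95% counting interval of 227 to 2133. The same ratio in LPA-treated mice was 1241, with an interval of 484 to 4555. These intervals cover counting error only, and they are wide because the control value rests on 4 reads. The gene lies at chr8:62057042-62123118 on the minus strand, and no other annotated gene overlaps it.

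Markers of gastric surface cells were set beside Anxa10. Of 12 such genes 5 were detected well enough to be tested, and Tff1 and Muc5ac, which define that cell type, had no read in any library. Summed over the 12 genes, the level was 1.41 to 3.18 FPKM in control, 8.17 to 21.7 FPKM in MYO5B-knockout and 19.2 to 34.0 FPKM in LPA-treated mice. Ctse, an intracellular aspartic protease, and Capn8, a stomach calpain, were higher in MYO5B-knockout than control mice by 3.92 ± 0.63 (SE) and 2.21 ± 0.40 on the log2 scale (limma, adjusted p = 0.0166 and 0.0267), and by 3.49 and 2.03 without the 3 libraries that stood apart. The Ctse call was lost in 2 and the Capn8 call in 6 of 22 alternatives, with an adjusted p of at most 0.0665 and 0.0982. Psca, a surface antigen, had no read in control and was at 14.1, 8.36, 0.341 and 0.773 FPKM in MYO5B-knockout mice (limma, adjusted p = 0.0523). Cldn18, a claudin of the stomach, was at 0 to 0.0137 FPKM in control and 0.0213 to 1.77 FPKM in MYO5B-knockout mice (limma, adjusted p = 0.431). Psca and Cldn18 were detected well enough to be tested through the knockout groups alone, so that they could be tested because they differed. Gkn3, a gastrokine, lay the other way, at 0.858 to 1.69 FPKM in control and 0 to 0.210 FPKM in MYO5B-knockout mice (adjusted p = 0.0810).

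Anxa13 is the annexin known for expression in intestinal epithelium, where its product associates with apical and basolateral transport carriers. Its levels were 51.4, 228 and 228 FPKM in control, 260, 673, 743 and 698 FPKM in MYO5B-knockout and 800, 1238 and 585 FPKM in LPA-treated mice. The lowest of their groups were control mouse 2 and, among vehicle-treated knockout mice, mouse 3, whose libraries had few detected genes, and no knockout library fell into the control range. MYO5B-knockout exceeded control by 1.98 ± 0.58 (SE) on the log2(FPKM + 0.1) scale, by 1.63 when both were left out and by 1.27 without control mouse 2 alone. The GENCODE annotation marks this locus as carrying an error of the reference genome, so the length behind its FPKM may not be the full transcript.

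Anxa2 forms a complex with S100a10 that links actin to membranes of the apical cell surface. Its levels were 872, 596 and 647 FPKM in control, 1724, 959, 877 and 1085 FPKM in MYO5B-knockout and 1179, 1629 and 1463 FPKM in LPA-treated mice. The groups met closely, with the lowest knockout library at 877 FPKM and the highest control library at 872 FPKM. MYO5B-knockout exceeded control by 0.69 ± 0.33 on the log2 scale, and after median-ratio scaling, which rescales each library by its median gene ratio to the others, by 0.40 with overlapping groups.

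Anxa4, an annexin of secretory and absorptive epithelia, was the least different of the abundant members. It was at 201, 307 and 337 FPKM in control, 297, 350, 402 and 359 FPKM in MYO5B-knockout and 451, 459 and 395 FPKM in LPA-treated mice. MYO5B-knockout mouse 3, at 297 FPKM, lay within the control range, and the difference was 0.35 ± 0.27 on the log2 scale. After median-ratio scaling it was 0.06.

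Anxa7, once named synexin for its part in the aggregation of secretory granules, was at 12.0, 37.5 and 44.5 FPKM in control. It was at 59.0, 85.6, 66.8 and 77.1 FPKM in MYO5B-knockout and 84.2, 101 and 75.3 FPKM in LPA-treated mice, with no overlap with control. The difference of MYO5B-knockout from control was 1.39 ± 0.41 on the log2 scale and 0.80 when control mouse 2 was left out.

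Anxa3 and Anxa5 were of low abundance in control, and both knockout groups were clearly separated from control. Anxa3 was at 0.907, 2.11 and 2.40 FPKM in control, 10.98, 23.0, 10.7 and 10.1 FPKM in vehicle-treated knockout and 20.9, 29.2 and 24.8 FPKM in LPA-treated mice. Its MYO5B-knockout level exceeded control by 2.87 ± 0.42 on the log2 scale, or 7.32-fold. Anxa5, whose protein binds phosphatidylserine and is used as a probe of dying cells, was at 4.59, 3.75 and 4.29 FPKM in control. It reached 26.8, 26.3, 14.5 and 11.8 FPKM in MYO5B-knockout and 48.1, 65.0 and 53.8 FPKM in LPA-treated mice. The Anxa5 difference of MYO5B-knockout from control was 2.12 ± 0.34, or 4.35-fold, and every LPA-treated library lay above every vehicle-treated one.

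Anxa1, the annexin that glucocorticoids raise and whose product acts on formyl peptide receptors, stayed near the limit of detection. Control libraries held 0, 4 and 3 reads, MYO5B-knockout libraries 1, 41, 17 and 15, and LPA-treated libraries 40, 68 and 51. In FPKM these were 0, 0.155 and 0.102, then 0.0546, 1.42, 0.497 and 0.397, and then 0.976, 2.35 and 2.29. MYO5B-knockout mouse 3 overlapped control while the LPA-treated mice did not. The pooled share of reads was 6.53 times that of control in MYO5B-knockout mice, with a counting interval of 3.01 to 16.8, and 18.1 times in LPA-treated mice, with an interval of 8.59 to 45.8. Of its receptor genes, Fpr1 had no read in any library, and Fpr2 and Fpr3 were too low to be tested.

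Anxa6, which has a duplicated core and is known from late endosomes, was the member with lower levels in knockout mice. It was at 4.22, 1.83 and 2.32 FPKM in control, 1.76, 0.746, 1.26 and 1.67 FPKM in MYO5B-knockout and 2.10, 0.882 and 1.81 FPKM in LPA-treated mice. The MYO5B-knockout mice lay below control without overlap, but by a narrow gap between 1.76 and 1.83 FPKM, and the groups overlapped after median-ratio scaling and after quantile normalization. The difference was -0.96 ± 0.50 on the log2 scale. Leukocyte markers were lower along with it: their summed level over 14 genes was 84.7 to 104 FPKM in control, 14.2 to 42.3 FPKM in MYO5B-knockout and 37.9 to 48.2 FPKM in LPA-treated mice. All 14 were detected in each group. Of them 12 were lower in MYO5B-knockout than control mice, where 63.4% of all genes were higher. The part of leukocytes in the Anxa6 level was not tested.

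Anxa11, whose protein binds S100a6 and tethers RNA granules to lysosomes, varied more within groups than between them. It was at 0.961, 10.0 and 8.30 FPKM in control, 0, 24.7, 23.8 and 18.8 FPKM in MYO5B-knockout and 27.8, 8.71 and 0.879 FPKM in LPA-treated mice. MYO5B-knockout mouse 3 had no Anxa11 read, where the other mice of its group had 1165, 1327 and 1157. That was uncommon among expressed genes: of 4496 genes with at least 10 FPKM in the other mice of the group, 15 (0.334%) had no read in that library. The difference of MYO5B-knockout from control was 0.37 ± 1.91 on the log2 scale with all libraries, 2.32 without MYO5B-knockout mouse 3 and -0.67 without control mouse 2. No direction can be given for Anxa11.

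Over the 10 annexins, MYO5B-knockout libraries lay above control without overlap for 6 (Anxa2, Anxa3, Anxa5, Anxa7, Anxa10 and Anxa13) and below it for 1 (Anxa6). Across all 15729 genes tested the same held for 11% and 6.2%. Since the annexins were chosen on this contrast, nothing is read from their count or from the median that follows. Their median log2 difference was 1.48, beside 0.29 for all genes, of which 63.4% were above 0. The shift of all genes fell to 0.04 under median-ratio scaling. Without MYO5B-knockout mouse 3, 9 annexins lay above control and 1 below, where 31.1% and 8.84% of all genes did. The counts were the same without all 3 libraries that stood apart, where the shares of all genes were 35.5% and 20.6%.

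In LPA-treated mice 8 of the 10 annexins lay above control without overlap, where 20.5% of all genes did. The median log2 difference of the annexins from control was 2.13, beside 0.41 for all genes. As the annexins were chosen with these levels in view, nothing is read from this count or this median. For Anxa10 the difference was 8.85 ± 0.52 in LPA-treated and 7.72 ± 0.49 in vehicle-treated knockout mice, for Anxa3 3.81 ± 0.44 and 2.87 ± 0.42, and for Anxa5 3.69 ± 0.36 and 2.12 ± 0.34. Both comparisons share the 3 control mice, so their values are not independent. Differences of Anxa10 and Anxa1, and of any gene near 0 in control, on this scale depend on the 0.1 FPKM added before taking logs.

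**Figure D2:**
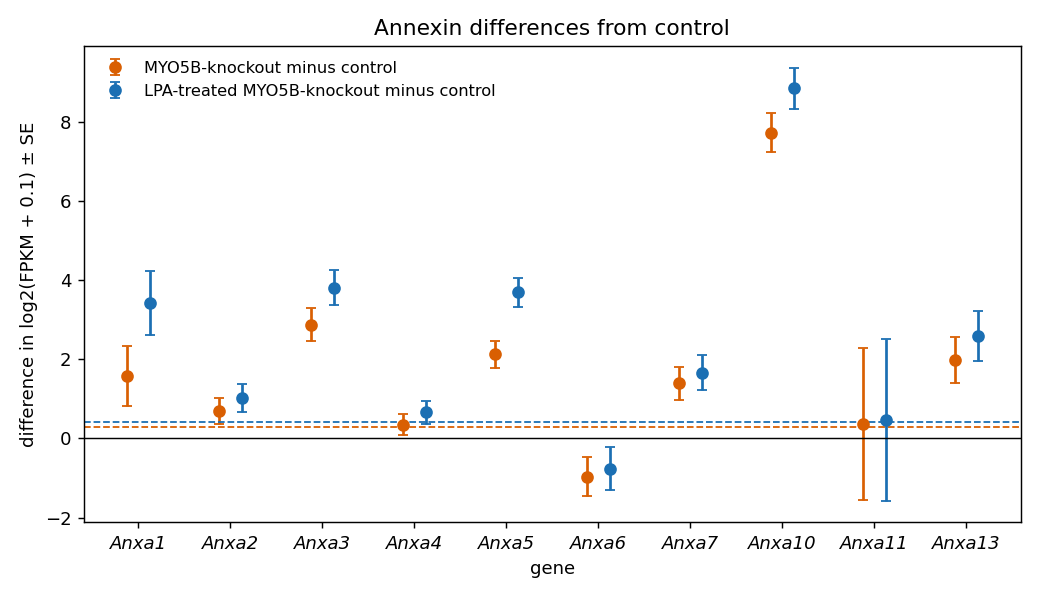
Difference of each annexin from control in log2(FPKM + 0.1), with the standard error, for 4 MYO5B-knockout mice (orange) and 3 LPA-treated MYO5B-knockout mice (blue) against 3 control mice. Dashed lines mark the medians of all 15729 genes, 0.29 and 0.41. Anxa10 stands highest, at 7.72 and 8.85, Anxa6 is below 0 in both, and the Anxa11 bars span 0.

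The effect of LPA within MYO5B-knockout mice was a comparison that the choice of genes did not name, although the levels were in view. No annexin passed an adjusted p of 0.05 with limma, and neither did any of the 15729 genes (0%), of which 459 had an unadjusted p under 0.05. Among the annexins 4 of 10, Anxa1, Anxa3, Anxa5 and Anxa10, had an unadjusted p under 0.05. All 10 fitted differences were above 0, with a median of 0.47 beside 0.11 for all genes, 60.7% of which were above 0.

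Anxa5 was the member in which LPA-treated and vehicle-treated knockout mice did not overlap, where 3.56% of all genes lay higher in LPA-treated mice without overlap. It was higher by 1.56 on the log2 scale, with a 95% confidence interval of 0.81 to 2.32, in 3 of 3 LPA-treated mice (limma, adjusted p = 1). Its adjusted p ranged from 0.0380 to 1 over the 22 alternatives. The count of annexins higher without overlap was 2 without MYO5B-knockout mouse 3 or 6 or LPA-treated mouse 4, 3 without LPA-treated mouse 1 or 5 and 4 without MYO5B-knockout mouse 5, where 4.3% to 9.5% of all genes were. Without all 3 libraries that stood apart it was 4 higher and 1 lower, Anxa11, where 15.7% and 26.1% of all genes were. The adjusted p of 0.0380 was obtained in that last setting, when the Anxa5 difference was 1.84. There 383 genes were called higher and 482 lower, from 2 control, 3 vehicle-treated and 2 LPA-treated mice. The LPA-treated mice were numbers 4 and 5. Deviations of mouse 5 correlated with those of the libraries with few detected genes.

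Anxa1 was higher in LPA-treated mice by 1.84 (95% confidence interval 0.17 to 3.52), Anxa10 by 1.12 (0.05 to 2.20) and Anxa3 by 0.94 (0.02 to 1.86), each with an adjusted p of 1. For Anxa13 the difference was 0.60, with an interval of -0.68 to 1.89. Anxa2, Anxa4 and Anxa7 differed by 0.33, 0.31 and 0.27, with intervals of -0.39 to 1.06, -0.28 to 0.90 and -0.64 to 1.19, so that a difference as large as that of Anxa3 is within the intervals for Anxa2 and Anxa7. The interval for Anxa6 was -0.91 to 1.31 around 0.20. For Anxa11 it ran from -4.12 to 4.33.

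Stromal and endothelial markers were also higher in LPA-treated than vehicle-treated knockout mice. Their summed level over 14 genes was 4.78 to 10.6 FPKM in control, 3.42 to 6.12 FPKM in MYO5B-knockout and 7.24 to 18.4 FPKM in LPA-treated mice. Of the 14, 11 were tested and all 11 were above 0, as were 60.7% of all genes, and 0 passed an adjusted p of 0.05 (limma). Goblet cell markers, at 7274 to 11903 FPKM in sum in vehicle-treated and 11903 to 21702 FPKM in LPA-treated knockout mice, were above 0 in 9 of 10. Among leukocyte markers 10 of 14 were above 0, 4 of them without overlap, where 3.56% of all genes were higher without overlap. The part of any of these cells in the annexin levels was not tested. Summed epithelial markers were at 8365 to 10861 FPKM in vehicle-treated and 9536 to 12120 FPKM in LPA-treated knockout mice.

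**Figure D3:**
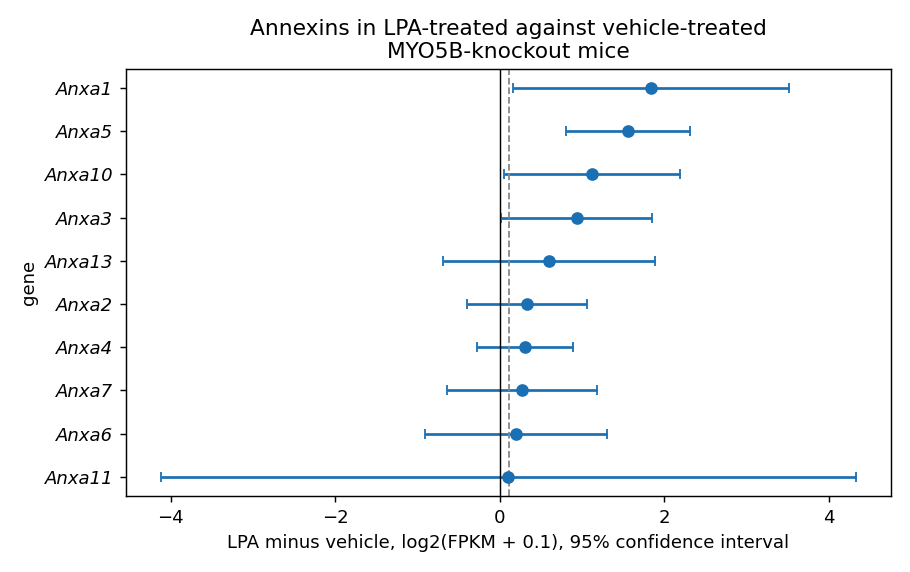
Difference of LPA-treated (n = 3) minus vehicle-treated (n = 4) MYO5B-knockout mice in log2(FPKM + 0.1) for each annexin on the horizontal axis, with 95% confidence intervals from limma. The dashed line is the median of all genes, 0.11. The intervals of Anxa1, Anxa5, Anxa10 and Anxa3 lie above 0 before adjustment for the number of genes, and that of Anxa11 runs from -4.12 to 4.33.

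The remaining annexins of the table were Anxa8 and Anxa9. Anxa8 had no read in control and at most 4 in any library, too few to be tested. Anxa9 was at 0, 0.520 and 0.244 FPKM in control, 1.12, 3.66, 2.72 and 1.82 FPKM in MYO5B-knockout and 2.49, 2.44 and 2.00 FPKM in LPA-treated mice. It was higher in MYO5B-knockout than control mice by 3.01 ± 0.65 (limma, adjusted p = 0.0461), in 4 of 4 mice. This call is uncertain, because Fam63a overlaps the gene on the other strand with 1411% as many reads, and because it was lost in 13 of 22 alternatives, with an adjusted p of 0.149 without MYO5B-knockout mouse 5 and 0.140 without control mouse 5. Across all genes limma called 1.13% higher (177) and 0.884% lower (139) in this contrast, and 222 and 376 after median-ratio scaling.

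S100 proteins, the calcium-binding partners of annexins, were examined as a family of 16 genes. Of these 14 could be tested, S100a3, S100a5 and S100a9 of them because of their levels in knockout mice alone. Between MYO5B-knockout and control mice 3 rose and 0 fell (limma), where 1.13% of all genes were called higher and 0.884% lower. The median difference of the 14 was 1.16 on the log2 scale, beside 0.29 for all genes. S100a6 (calcyclin), a partner of Anxa11, was at 188, 87.9 and 106 FPKM in control, 3722, 1209, 618 and 731 FPKM in MYO5B-knockout and 1227, 2514 and 2845 FPKM in LPA-treated mice. Every knockout library lay several times above the control range, and MYO5B-knockout mouse 3 was the highest of all. S100a6 rose by 3.31 ± 0.60 (limma, adjusted p = 0.0272). Without the 3 libraries that stood apart the difference was 3.08. The call was lost in 6 of 22 alternatives, among them those without control mouse 4, control mouse 5, MYO5B-knockout mouse 5 or LPA-treated mouse 4, with adjusted p = 0.0941, 0.114, 0.0845 and 0.0511.

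S100a14, an epithelial member, was at 11.1, 6.93 and 6.56 FPKM in control, 122, 33.5, 27.7 and 40.7 FPKM in MYO5B-knockout and 44.7, 75.1 and 86.5 FPKM in LPA-treated mice. It rose by 2.52 ± 0.49 (limma, adjusted p = 0.0331). Without the 3 libraries that stood apart S100a14 differed by 2.30. Its call was lost in 10 of 22 alternatives. Leaving out control mouse 4 or 5, MYO5B-knockout mouse 5 or 7, or any 1 of the LPA-treated mice took its adjusted p to between 0.0505 and 0.132. S100a5 rose in 4 of 4 mice, from 2 reads over the 3 control libraries to 168 over the 4 MYO5B-knockout libraries, a ratio of read shares of 51.9 with a counting interval of 14.1 to 432. Its fitted difference was 5.16 ± 0.64 (limma, adjusted p = 0.00495), and it ranged from 2.59 with 1 FPKM added before taking logs to 7.48 with 0.01 FPKM added. S100a5 passed the filter on low values through its knockout levels alone, so that it could be tested because it differed.

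The 3 other partners did not pass. S100a10, which joins Anxa2, was at 1179, 908 and 1056 FPKM in control, 1541, 1048, 988 and 1548 FPKM in MYO5B-knockout and 1154, 1937 and 1925 FPKM in LPA-treated mice. The groups overlapped, with a difference of 0.27 and a 95% confidence interval of -0.46 to 1.00 between MYO5B-knockout and control (limma, adjusted p = 0.718). S100a11, a partner of Anxa1, was at 87.4, 150 and 134 FPKM in control and 186, 540, 347 and 455 FPKM in MYO5B-knockout mice. That is a difference of 1.56 ± 0.40 without overlap (limma, adjusted p = 0.0754). Without the 3 libraries that stood apart the adjusted p of S100a11 was 0.0141. S100a4 was at 0 to 0.391 FPKM in control and 0 to 0.582 FPKM in MYO5B-knockout mice, with a difference of 0.64 ± 0.93 (limma, adjusted p = 0.762). Of the 11 genes listed as annexin partners and receptors, 8 could be tested and S100a6 was the 1 that passed, where 1.13% of all genes were called higher.

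Between LPA-treated and vehicle-treated knockout mice 0 of the 14 S100 genes passed with limma, and 13 of 14 differences were above 0, beside 60.7% for all genes. The largest was that of S100a4, 2.14 with a 95% confidence interval of 0.08 to 4.19 (adjusted p = 1), at 0.246, 1.62 and 2.56 FPKM in LPA-treated mice. Without the 3 libraries that stood apart, S100a6, S100a13 and S100a14 passed (limma, adjusted p = 0.0389, 0.0306 and 0.0344). That setting called 2.41% of all genes higher and 3.04% lower. It kept LPA-treated mouse 5, whose deviations correlated with those of the libraries with few detected genes. S100a6 and S100a14 were highest of their group in this mouse, at 2845 and 86.5 FPKM. Its part in these calls was not tested.

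**Figure D4:**
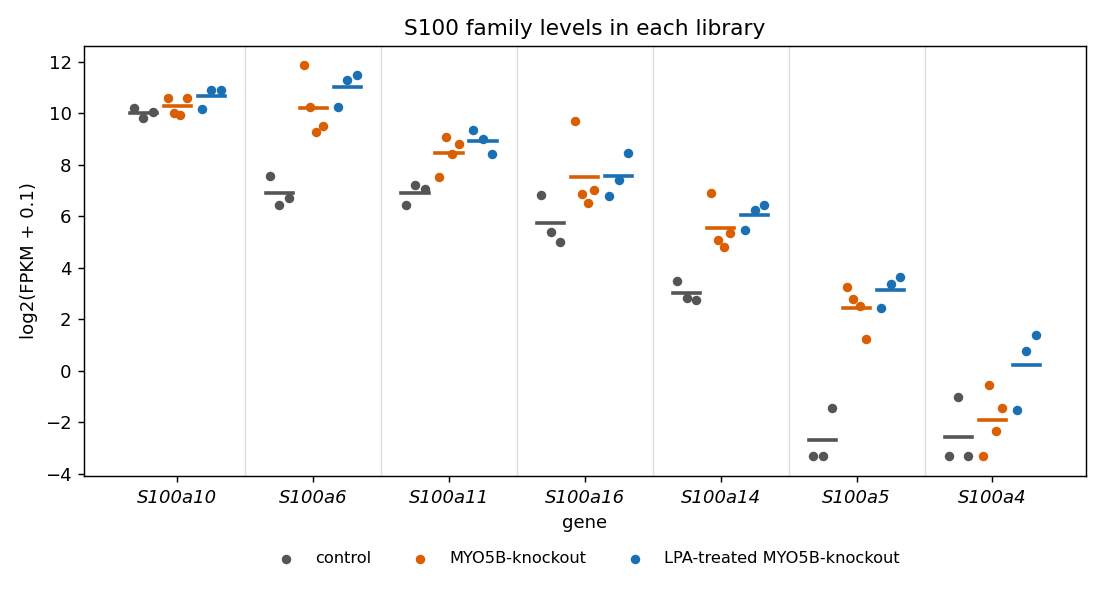
Level of 7 S100 genes in each library, as log2(FPKM + 0.1), in 3 control (grey), 4 MYO5B-knockout (orange) and 3 LPA-treated MYO5B-knockout mice (blue), with lines at group means. S100a10 overlaps between all groups, while S100a6, S100a14, S100a11 and S100a5 lie above control in every knockout library. The highest orange points of S100a6, S100a16 and S100a14 are MYO5B-knockout mouse 3.

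Membrane repair, a process in which annexins and S100 proteins act together, was followed with 18 genes, of which 17 could be tested. In MYO5B-knockout against control mice 1 rose and 0 fell (limma), where 1.13% of all genes were called higher and 0.884% lower. The median was 0.07, below the 0.29 of all genes. The gene that rose was Capn2, the catalytic subunit of a calcium-activated protease. It was at 1.22, 2.21 and 1.66 FPKM in control, 5.51, 18.3, 15.8 and 21.5 FPKM in MYO5B-knockout and 29.6, 23.8 and 15.2 FPKM in LPA-treated mice, a difference of 2.97 ± 0.48 (limma, adjusted p = 0.0171). The call was lost without control mouse 5 (adjusted p = 0.0849), MYO5B-knockout mouse 5 (0.0646) or MYO5B-knockout mouse 6 (0.0525). The related Capn1 differed by -0.19, with a 95% confidence interval of -0.72 to 0.33, and the shared small subunit Capns1 by 0.07 (-0.64 to 0.77).

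Copines are a separate family of calcium-dependent phospholipid-binding proteins. Of 9 copine genes 2 could be tested, and 0 passed between MYO5B-knockout and control mice with limma. Cpne3 differed by 0.96 ± 0.40, with an unadjusted p under 0.05 and an adjusted p of 0.249, and Cpne2 by -0.87 ± 0.63 (adjusted p = 0.507). Cpne2 passed with DESeq2 on recovered reads, at -1.36 with an adjusted p of 0.0379, where DESeq2 called 6.59% of all genes lower, and edgeR called neither.

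Genes with the profile most like Anxa10 were found by the root mean square distance of log2 values over the 10 libraries, after centring each gene, among 15718 genes other than the annexins. They were Syt8 (distance 0.89), Plat (1.29), Ereg (1.34), S100a5 (1.42) and Paqr8 (1.43). Syt8, a synaptotagmin, had no read in control, and was at 27.9, 15.0, 7.36 and 5.07 FPKM in MYO5B-knockout and 9.11, 33.3 and 18.5 FPKM in LPA-treated mice. Plat, tissue plasminogen activator, which is known to bind the complex of Anxa2 and S100a10, was at 0, 0.0257 and 0.0677 FPKM in control. In vehicle-treated knockout mice Plat stood at 2.45, 10.8, 2.44 and 2.77 FPKM, below the 23.0, 14.9 and 24.4 FPKM of LPA-treated mice. Ereg encodes epiregulin, a ligand of the EGF receptor family, and went from 0.0438 to 0.428 FPKM in control to 5.36 to 12.2 FPKM in MYO5B-knockout mice and 13.5 to 18.1 FPKM in LPA-treated mice. These genes were picked for their likeness to Anxa10, so that their differences from control are a description.

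**Figure D5:**
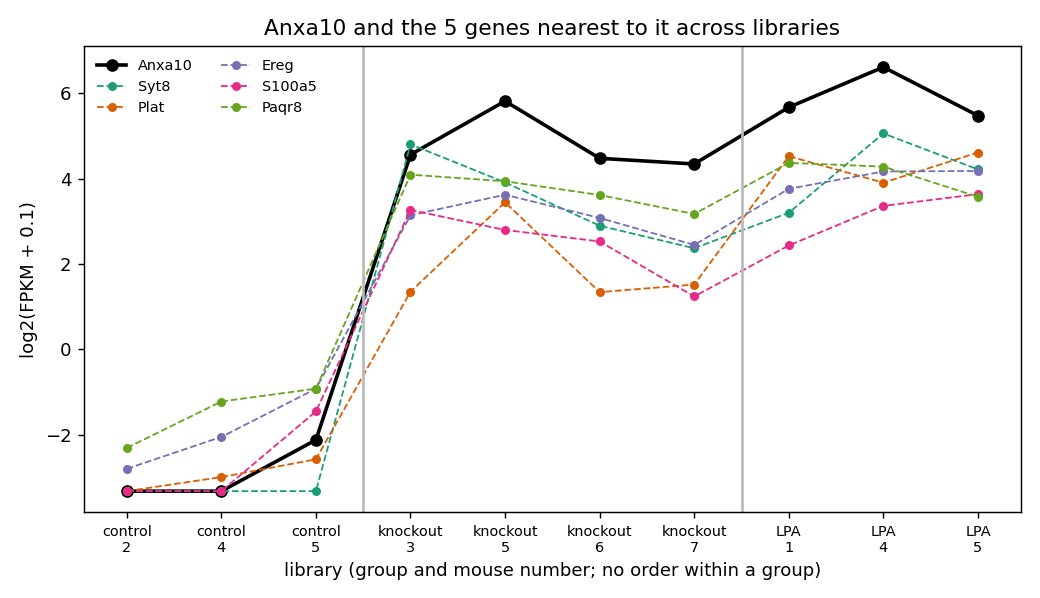
Anxa10 (black) and the 5 genes nearest to it, as log2(FPKM + 0.1) on the vertical axis, in the 10 libraries on the horizontal axis, named by group and mouse number. Lines join the values of a gene and imply no order of mice. All 6 genes are low in the 3 control libraries, and Plat and Ereg have all LPA-treated values, from 14.9 and 13.5 FPKM up, above their vehicle-treated values.

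By a distance not scaled to a gene's range, which tends to be larger for wide-ranging genes, Anxa13 had closer neighbours than Anxa10. Its 5 nearest genes were Sptssb (distance 0.26), a subunit of serine palmitoyltransferase, Grk5 (0.34), a receptor kinase, Pard6b (0.38), a polarity protein of the apical domain, Tsc22d2 (0.38) and 1700019L03Rik (0.38). Pard6b was at 4.37, 17.6 and 17.9 FPKM in control and 13.03, 35.6, 38.8 and 38.0 FPKM in MYO5B-knockout mice, with the lowest value of each group in the same mice, 2 and 3, as for Anxa13. Likeness to Anxa13 thus includes what those libraries have in common. Within the family the nearest pairs by the same distance were Anxa2 with Anxa4 (0.49), Anxa7 with Anxa13 (0.51), Anxa4 with Anxa7 (0.57) and Anxa3 with Anxa5 (0.57).

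Cell type markers that differed between control and MYO5B-knockout mice are given for the family as a whole. Summed markers of proliferating crypt cells were at 74.5 to 138 FPKM in control, 235 to 406 FPKM in MYO5B-knockout and 170 to 330 FPKM in LPA-treated mice. All 12 were higher in MYO5B-knockout than control mice, as were 63.4% of all genes. Of the 12, 1 passed an adjusted p of 0.05 (limma), where 1.13% of all genes were called higher. Summed enterocyte markers were at 40524 to 53140 FPKM in control, 21064 to 35883 FPKM in MYO5B-knockout and 32460 to 60677 FPKM in LPA-treated mice. Against control, 10 of these 14 genes were lower and 4 higher in MYO5B-knockout mice, and 8 lower and 6 higher in LPA-treated mice. Their median log2 differences were -0.82 and -0.81. Limma called 1 and 2 of them lower, where 0.884% and 0.776% of all genes were. The 2 were Lct and Slc5a1, at means of 0.212 and 240 FPKM in LPA-treated against 185 and 844 FPKM in control mice. Summed epithelial markers were at 5766 to 7694 FPKM in control, 8365 to 10861 FPKM in MYO5B-knockout and 9536 to 12120 FPKM in LPA-treated mice. Of these 10 genes, 6 were higher and 4 lower in MYO5B-knockout than control mice, and limma called 0. In LPA-treated mice 8 were higher than control and 2 lower. Limma called 2 of them higher, where 1.54% of all genes were. The part of these cell types in the annexin levels was not tested.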

How the data were processed

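RNA of jejunal epithelial cells from 10 mice was sequenced as poly(A) libraries. The authors deposited a table of FPKM per gene, used here, and a few count values. STAR, TopHat, HTSeq and DESeq2 are named in the submitters' processing notes, with HTSeq at version 0.6.1 and STAR at 2.5. Files of the authors' own comparisons (fold changes, p-values and pathway lists) were not used. The annexins and the other lists were chosen with earlier results of these data known.

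Groups were taken from the sample titles. FPKM was transformed as log2(FPKM + 0.1), and genes averaging 0.1 FPKM or more over all libraries (15729) were fitted with limma 3.58.1 (R 4.3.3) in 1 model of 3 groups with a trended variance, two-sided, with Benjamini-Hochberg adjustment over all of them. All 10 annexins passed this filter, Anxa1 and Anxa10 through the knockout groups alone, as did S100a3, S100a5, S100a9, Psca and Cldn18. SE and confidence intervals come from that fit. Its p-values set each difference against the spread between mice within all 3 groups, moderated by that of the other genes. Groups were said not to overlap when every library of one exceeded every library of the other.

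Each FPKM times gene length was a whole multiple of 1 step per library for 99.98% to 100% of values, within 0.02 read. The deposited counts equalled the reads recovered this way in 63 of 63 values. These reads were used for pooled ratios and for edgeR 4.0.16 and DESeq2 1.42.0 as alternatives. The precision of low values follows from the depth of 10949420 to 24470409 reads on genes, and intervals of ratios are exact and cover counting error only. The limma and edgeR steps were tested on simulated data.

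Named were all annexins, the members of each other list past an adjusted p of 0.05 (at most 8 a list), S100a4, S100a6, S100a10 and S100a11 in any case, and the 5 genes nearest to Anxa10 and to Anxa13. Further S100, calpain, copine and marker genes were named after their values were seen. Alternatives were 2 pseudocounts, 2 filters, 2 scalings, libraries left out, the mouse number as a block, edgeR and DESeq2. Protein sequences were not analysed here.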

Additional observations from a re-analysis of the deposited data

Results flagged for a closer look

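Among the 26 genes of the annexin and S100 families tested for it, 10 had 1 MYO5B-knockout library far from the other 3. Chance flags about 1 in 20 groups of independent values, a rate that cannot be set against this count, since 6 of the 10 come from 1 library and S100a8 and S100a9 were at 0 in the other 3. MYO5B-knockout mouse 5 was the highest for Anxa3, at 23.0 FPKM against a lowest value of 10.1, and for Anxa10, at 56.3 FPKM against 20.2. MYO5B-knockout mouse 3 was the lowest for Anxa13, at 260 FPKM, where the highest library of its group was at 743 FPKM. The same mouse was the highest for S100a3 (1.80 FPKM), S100a13 (149 FPKM), S100a14 (122 FPKM), S100a16 (825 FPKM) and S100z (3.35 FPKM). MYO5B-knockout mouse 7 was the one with reads on S100a8 (0.226 FPKM) and S100a9 (0.598 FPKM), genes of neutrophils. MYO5B-knockout mouse 3 is a library with few detected genes and with Xist, and the part of either in these values was not tested.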

How the results depend on the processing

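The sign of the MYO5B-knockout difference from control held for 9 annexins in each of the 22 alternatives that gave a value, and for Anxa11 the difference ran from -0.67 to 2.32. The Anxa10 difference was 4.79 with 1 FPKM added, 10.17 with 0.01 FPKM added, 8.92 with edgeR and 9.03 with DESeq2. Without the 3 libraries that stood apart, 1 annexin was called between LPA-treated and vehicle-treated knockout mice, 5 S100 genes and 1 copine were called between MYO5B-knockout and control mice, and 3 S100 genes between the knockout groups; DESeq2 gave 5 S100 genes and 1 copine in the knockout comparison. Over all genes the calls against control rose too, from 1.13% higher and 0.884% lower to 6.94% and 4.36% without those libraries and 5.19% and 6.59% with DESeq2. Between the knockout groups they rose from 0% to 2.41% higher and 3.04% lower without those libraries. Leaving out 1 mouse at a time gave 1 to 4 S100 genes and 0 to 1 membrane repair genes called against control. No annexin lay below control without overlap (0) after median-ratio scaling or quantile normalization. The LPA difference of Anxa6 turned to -0.040 without MYO5B-knockout mouse 5 and -0.027 without LPA-treated mouse 1, and reached 0.55 with another mouse left out. That of Anxa11, 0.11, turned to -0.39 with 1 FPKM added, -0.20 with quantile normalization, -1.85 without the libraries with few genes, -2.93 without those with Xist or all 3, and -0.42 with edgeR and DESeq2; with 1 mouse left out it ranged from -1.85 to 1.44. The cause of these changes was not tested. Whether mouse numbers pair the samples cannot be told: deviations of same-numbered mice correlated at 0.104, 0.300, -0.356 and -0.214. Those of differently numbered mice from different groups ran from -0.499 to 0.546. With the number as a replicate block the counts stayed at 0 annexins and 3 S100 genes called. Depth limits Anxa1 and the control level of Anxa10, which rest on 7 and 4 control reads.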
